A study of Mus musculus with 6 samples.

Results

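Open chromatin away from promoters that was present in both genotypes, but ranked higher after loss of the *Sox2* enhancer cluster SRR2–18, made up 5813 regions. They were chosen by the fold enrichment of ATAC-seq reads over local background. An interval of the parent peak list counted when it overlapped an interval of the deletion list by at least 1 bp, when its strongest summit lay more than 1 kb from every annotated transcription start site (TSS), and when its percentile rose by at least 20 points. A percentile here is the rank, from 0 to 100, of an interval's highest fold enrichment among all intervals of the same list, and the gain is the ΔSRR2–18 percentile minus the parent percentile. The parent list held 82885 intervals, of which 39500 overlapped the deletion list and 25432 of those were distal. The 5813 members were thus 22.9% of shared distal regions and 7.01% of all parent intervals. A further 13594 shared distal regions changed by less than 20 points and are called stable here, and 6025 lost at least 20 points and are called regions that lost rank.

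ATAC-seq uses a transposase that inserts sequencing adapters into accessible DNA, so that reads accumulate at promoters, enhancers and insulators. The cells were neural stem and progenitor cells (NSPCs) derived in culture from F1 hybrid embryonic stem cells (129S1/Cast), which carry a 129S1 and a *M. castaneus* genome. Parent NSPCs came from Clone 5B, with genotype Sox2-mCherry (129) and no deletion, and ΔSRR2–18 NSPCs came from Clone 47D, which has the same reporter and a homozygous SRR2-18 deletion made with Cas9. There were 3 cultures per genotype, all kept in N2B27 medium with EGF and bFGF on poly-d-lysine and laminin. Each genotype is therefore 1 clone, and a difference between the clones cannot be told apart from an effect of the deletion. The lists pool the 3 cultures of a genotype, so no value below has a replicate error and no genotype difference was tested. In these bulk profiles, more cells with a region open and a more open region per cell cannot be told apart. The 10 NSPC genes examined (*Sox2*, *Sox1*, *Nes*, *Vim*, *Pax6*, *Fabp7*, *Msi1*, *Cdh2*, *Hes5* and *Sox9*) had an open interval at a TSS in both lists, as did 1 of 4 pluripotency genes (*Esrrb*) and none of the blood, liver, muscle and heart genes. Within the deleted span the parent list had 4 intervals and the deletion list had 0.

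Distal enhancers are bound by combinations of transcription factors, and which enhancers are open differs between cell types and regions of the nervous system far more than which promoters are open. AP-1, a dimer of FOS, JUN and related proteins, binds enhancers in cells that receive growth factor signals such as EGF and FGF, often together with TEAD factors, the DNA-binding partners of the Hippo pathway effector YAP. SOX2 binds SOX motifs at many neural enhancers. NFI and RFX factors are known from progenitors and glia, HOX proteins with their PBX and MEIS partners set position along the body axis, and CTCF marks insulators and chromatin loop anchors that are open in most cell types.

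The sequences below are 201-bp windows of the mm10 (GRCm38) forward strand, written 5′ to 3′, centred on the parent summit of named members. The first 3 are the members with an AP-1 motif among the 10 largest gains. They are shown because this motif separated members from stable regions most strongly. Capitals mark every match to the AP-1 motif TGACTCA or its reverse complement TGAGTCA. They lie in intergenic DNA near *Gtf2i* (chr5:134350779-134350979), in intergenic DNA nearest *Rngtt* (chr4:33587678-33587878) and in an intron of *Sybu* (chr15:44711540-44711740). The *Rngtt* TSS is 277467 bp from its region, so that name serves only as an address.

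Gtf2i: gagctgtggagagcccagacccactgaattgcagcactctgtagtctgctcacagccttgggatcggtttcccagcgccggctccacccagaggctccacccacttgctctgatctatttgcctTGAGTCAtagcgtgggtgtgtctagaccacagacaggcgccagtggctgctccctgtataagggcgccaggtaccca
Rngtt: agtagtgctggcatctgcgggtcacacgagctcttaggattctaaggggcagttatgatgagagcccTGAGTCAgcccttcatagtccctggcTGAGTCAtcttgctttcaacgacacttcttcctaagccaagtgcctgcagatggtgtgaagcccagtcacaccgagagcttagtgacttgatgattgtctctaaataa
Sybu: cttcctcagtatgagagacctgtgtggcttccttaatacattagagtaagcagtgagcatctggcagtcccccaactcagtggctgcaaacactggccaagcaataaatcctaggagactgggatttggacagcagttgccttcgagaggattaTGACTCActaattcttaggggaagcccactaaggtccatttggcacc

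The match lay 27 bp from the summit in the *Gtf2i* window and 57 bp from it in the *Sybu* window, and the *Rngtt* window held 2 matches, centred 30 and 4 bp to the left of the summit. The next 4 windows belong to members with the highest ΔSRR2–18 percentiles. They show that a top rank was also reached without an AP-1 match, since only the *G6pc2* window holds one, 85 bp left of the summit. The *Lrrc17* window has the CTCF motif in lower case. These windows lie in introns of *Abcb11* (nearest coding TSS *G6pc2*, chr2:69275979-69276179), *Fbxl13* (nearest *Lrrc17*, chr5:21586868-21587068), *Ecpas* (chr4:58867361-58867561) and the non-coding gene *Gm10754* (nearest *C030005K15Rik*, chr10:97712686-97712886).

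G6pc2: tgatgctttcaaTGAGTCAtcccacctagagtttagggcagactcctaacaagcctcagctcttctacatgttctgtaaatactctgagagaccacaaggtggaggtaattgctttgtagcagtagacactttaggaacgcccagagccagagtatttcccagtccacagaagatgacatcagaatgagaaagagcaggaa
Lrrc17: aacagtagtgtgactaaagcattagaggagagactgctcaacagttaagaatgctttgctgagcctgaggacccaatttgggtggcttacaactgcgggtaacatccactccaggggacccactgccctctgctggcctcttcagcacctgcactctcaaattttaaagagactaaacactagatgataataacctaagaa
Ecpas: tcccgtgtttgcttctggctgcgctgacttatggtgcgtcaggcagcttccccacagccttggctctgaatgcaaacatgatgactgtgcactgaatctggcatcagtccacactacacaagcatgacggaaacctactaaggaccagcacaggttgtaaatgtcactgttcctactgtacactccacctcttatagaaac
C030005K15Rik: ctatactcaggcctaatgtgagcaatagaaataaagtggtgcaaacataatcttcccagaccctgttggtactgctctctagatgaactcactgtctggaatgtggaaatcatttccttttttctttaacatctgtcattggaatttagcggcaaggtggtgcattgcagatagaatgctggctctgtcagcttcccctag

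Members moved from the low ranks of the parent list to the high ranks of the deletion list. Their median percentile was 27.8 in the parent list (quartiles 14.1 and 44.1) and 75.5 in the deletion list (quartiles 59.1 and 88.1), with a median gain of 38.9 points. The underlying fold enrichment had a median of 6.35 in the parent and 16.0 in ΔSRR2–18 NSPCs, and it was higher in the deletion list for all 5813 members. These values describe the choice of members and are not evidence for it. The gain exceeded 60 points in 1006 members and 80 points in 141, and 416 members lay below the percentile of 20 in the parent and above 80 in the deletion list. The member just inside the threshold gained 20.0024 points (percentile 56.4 to 76.4, fold enrichment 11.1 to 16.3), and the region just outside it gained 19.9968 points (18.1 to 38.1, 5.18 to 8.58). Over all shared distal regions the median gain was −0.97.

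**Figure D1:**
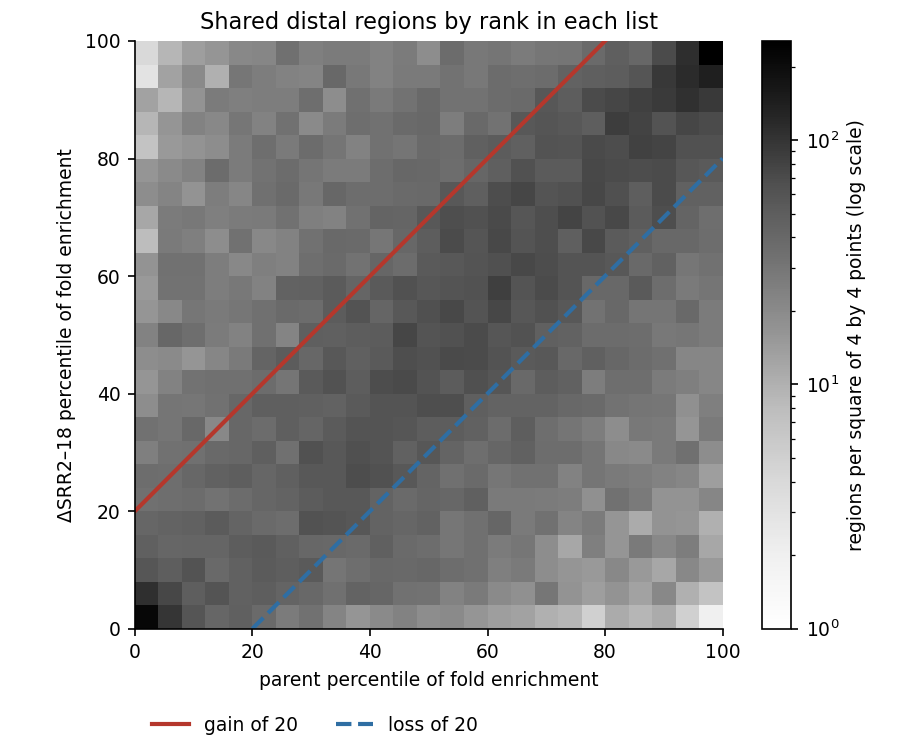
Percentile of fold enrichment in the parent list (x axis) against that in the ΔSRR2–18 list (y axis) for the 25432 shared distal regions, as the number of regions per square of 4 by 4 points on a log grey scale. The 5813 members lie on or above the solid line (gain of 20), and the 6025 regions with a loss of at least 20 lie on or below the dashed line; regions are densest in the corners where both ranks are lowest or highest.

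A fold enrichment can change through its summit reads or through the background around it, so both were recovered from the deposited fold enrichment and −log10 p. The number of reads came out whole for 99.9993% of parent and 100% of deletion summits. The lowest background, which stands for the genome-wide mean, was 38.8 reads in the parent and 19.7 in the deletion list, so the parent pool was 1.98 times as deep. Members had a median of 370 summit reads in the parent and 597 in the shallower deletion pool. Scaled to equal depth, the median ratio of deletion to parent reads was 2.74 in members (quartiles 1.68 and 5.10), against 1.00 in stable regions and 0.525 in regions that lost rank. The scaled ratio exceeded 2 in 3814 members (65.6%) and was below 1 in 684. The scaled local background fell below 0.5 of the parent value in 786 members (13.5%), compared with 10.9% of stable regions and 18.4% of regions that lost rank. It rose above 2 times the parent value in 1320 members (22.7%), compared with 9.89% and 13.9%.

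Most members also ranked higher by the other measures of the same libraries. By the −log10 p of the same summits, 4544 members (78.2%) gained at least 20 points and 206 had a lower rank, where 24.0% of all shared distal regions gained at least 20. By summit reads, 4001 members (68.8%) gained at least 20 and 599 had a lower rank, where the background was 23.7%. A gain of at least 20 by all 3 measures was seen in 4000 members. These measures come from the same contrast that chose the members, so they describe how the gain arose and add no independent support. Member intervals were also wider after deletion, with a median of 703 bp against 554 bp in the parent, whereas stable intervals went from 682 to 627 bp. The maximum reproducibility (IDR) score of 1000 was carried by 69.3% of member intervals in the parent list and 98.5% of their partners in the deletion list. In the authors' more permissive optimal list of the parent, 5217 members had an interval with the same ends.

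The largest gain was in an intron of *Ccdc141* on chr2:77166426-77166779. This region had a fold enrichment of 3.00 and percentile 2.82 in the parent, and 25.1 and 97.1 in ΔSRR2–18 NSPCs, a gain of 94.3. Its summit reads went from 302 to 1547, or 10.1 times the parent value at equal depth. An intron of *Kat6b*, a histone acetyltransferase gene (chr14:21593081-21593487), went from percentile 4.61 to 98.3 with 144 and 982 reads, 13.5 times at equal depth. Both regions rose by reads as well as by rank. An intron of *Fryl* (chr5:73168234-73168732) went from 2.11 to 95.4 with 283 and 1161 reads. Its deletion interval was chr5:73168582-73169162, with a summit 524 bp from the parent summit. Each summit lay outside the interval of the other list. These values were therefore taken at neighbouring positions and do not show a rise at a single summit.

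A member in an intron of *Aldh1l1*, an astrocyte gene of folate metabolism, differed in this respect. On chr6:90538024-90538258 the percentile went from 3.48 to 97.0 and the fold enrichment from 3.18 to 25.1. Summit reads were 1367 in the parent and 525 in the deletion pool, 0.759 of the parent value at equal depth, and the local background was 429 and 20.0 reads. Its percentile by reads fell by 4.87 after deletion, so the gain by fold enrichment went with the background and not with the summit. In the AP-1 region nearest *Rngtt* (chr4:33587611-33588038) both summit and background differed. Its reads were 677 and 682, or 1.99 times at equal depth, and its rank by reads gained 24.4 points. The background was 186 and 25.2 reads.

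The other 5 of the 10 largest gains fell between 91.2 and 93.3 points. They lay near *Mgmt*, a DNA repair gene (chr7:136390056-136390461), *Gtf2i* (chr5:134350743-134351007), *Osr1* (chr12:9856073-9856605) and *Zeb2*, a zinc finger factor of neural development (chr2:46652663-46652985), and in an intron of *Sybu* (chr15:44711525-44711913). Their scaled reads rose 3.99 times near *Mgmt*, 6.21 times near *Gtf2i*, 7.28 times near *Osr1*, 7.94 times in *Sybu* and 8.98 times near *Zeb2*. Distances to the nearest coding TSS were 36119 bp for *Gtf2i*, 37032 bp for *Sybu*, 281881 bp for *Osr1*, 504333 bp for *Mgmt* and 1535398 bp for *Zeb2*, so the gene name serves only as an address for the last 3.

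The highest ΔSRR2–18 ranks among members reached a fold enrichment of 34.1 to 41.9. The intron of *Abcb11* near *G6pc2* (chr2:69275906-69276239) went from percentile 52.3 to 99.98, with reads of 408 and 912, or 4.42 times at equal depth. The intron of *Fbxl13* near *Lrrc17* (chr5:21586806-21587131) went from 37.6 to 99.98 with reads of 306 and 1258, 8.12 times at equal depth. The intron of *Ecpas*, a proteasome adaptor gene (chr4:58867315-58867618), went from 67.7 to 99.97 with reads of 540 and 1012. These 3 had parent backgrounds at the genome-wide floor of 38.8 reads and gained at least 41.5 points by both other measures. The region in *Gm10754* near *C030005K15Rik* (chr10:97712568-97713036) went from 53.9 to 99.96, but its scaled reads rose only 1.28 times while the background was 113 and 22.0 reads. The top rank belonged to a region nearest *Gm5426* (chr10:96077549-96077950), with percentiles of 76.4 and 99.995. Of the 177 25-base words in its window, 108 also occur in the mitochondrial genome, and its sequence is not shown. Among the 5813 members, 2 held any such word.

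**Figure D2:**
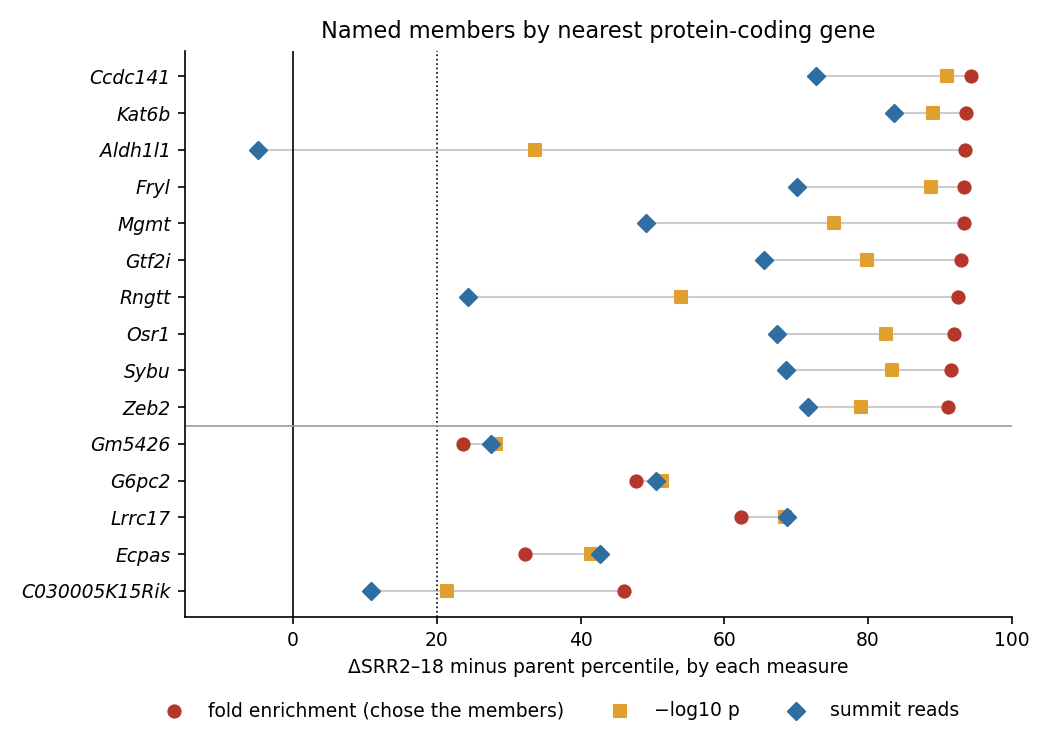
Gain in percentile (x axis, ΔSRR2–18 minus parent) of the 10 members with the largest gain (above the line) and the 5 with the highest ΔSRR2–18 percentile (below it), named by nearest protein-coding gene, by fold enrichment (circles), −log10 p (squares) and summit reads (diamonds). The dotted line marks 20 points; the *Aldh1l1* region is at 93.6 by fold enrichment and −4.87 by reads.

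The sequences of members were independent of the rule and were compared with those of stable regions. The AP-1 motif TGACTCA occurred within 100 bp of the parent summit in 1208 members (20.8%, 95% Wilson interval 19.8–21.8), in 8.93% of stable regions (8.46–9.42) and in 5.74% of regions that lost rank (5.18–6.36). It was found in 10.9% of all shared distal regions. The member share was 2.33 times the stable share (95% interval 2.16–2.50) and 3.62 times the share among regions that lost rank (3.23–4.06). These intervals cover counting error only. In windows of the same length 500 bp to the right of the summit the shares were 4.73%, 4.08% and 3.78%. Of the 1300 AP-1 matches in member windows, 25 overlapped a match to any other motif searched. Among stable and member regions of like GC content the ratio was 2.29. Among those of like parent percentile it was 3.06, and among those of like ΔSRR2–18 percentile 1.85.

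The AP-1 share was higher in each successive range of gain. It was 4.36% among regions that lost more than 60 points, 7.13% among those that lost less than 20, and 11.0% among those that gained less than 20. Among members it was 16.0% for gains of 20 to 30 points, 17.7% for 30 to 40, 23.2% for 40 to 60 and 28.8% for gains above 60 (95% interval 26.1–31.7). The share also depended on which measures rose. The 4000 members that gained at least 20 points by all 3 measures carried AP-1 in 24.5% of windows (23.2–25.8), and the other 1813 members in 12.6% (11.2–14.2). The latter was above the stable share of 8.93%.

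Motifs for TEAD and HOX-PBX were also more frequent in members than in stable regions. The TEAD motif ACATTCC was found in 10.5% of members and 7.19% of stable regions, a ratio of 1.46 (1.32–1.60), with a flanking share of 3.10% in members. The HOX-PBX motif TGATTNAT was found in 4.49% and 2.71%, a ratio of 1.66 (1.42–1.94). Its flanking share was 3.65% in members and 2.66% in stable regions. The rise at the summit over the flank was therefore small, and members exceeded stable regions in the flanks as well. In members with gains above 60 points these shares were 12.5% for TEAD and 6.66% for HOX-PBX. AP-1 and TEAD occurred together in 102 members (1.75%) and in 0.618% of stable regions, a ratio of 2.84 (2.13–3.78). Within members, TEAD was found in 8.44% of those with AP-1 and 11.0% of those without. The ratio therefore does not show that these motifs occurred in pairs. At least one of AP-1, TEAD and HOX-PBX was present in 32.9% of members and 17.8% of stable regions.

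Smaller excesses over stable regions were seen for 6 other motifs. The ratio was 1.25 for RUNX (TGTGGTT), 1.23 for MEIS (CTGTCAA or CTGTCAT), 1.28 for FOX (TGTTTAC), 1.24 for CDX (CCATAAA or CAATAAA), 1.15 for POU (ATGCAAA or ATGCTAA) and 1.15 for NFI (TTGGCA). For CDX, FOX and POU the interval of the ratio included 1 among regions of like GC content, with ratios of 1.08, 1.17 and 1.04. For POU it also included 1 with summits within 100 bp of each other (1.09) and with a 50-bp window (1.18). CDX letters were also less frequent at member summits (4.52%) than in their flanks (7.16%). For POU the shares at member summits and flanks were 6.83% and 6.73%, for FOX 3.20% and 2.84%, and for RUNX 6.14% and 5.26%. MEIS had 7.48% and 6.09%, and NFI had 19.4% and 10.3%. Of these, only NFI was far more frequent at the summit. The NFI motif was carried by 19.4% of members, 17.0% of stable regions and 21.5% of regions that lost rank, so members lay between the other groups.

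For the SOX motif the ratio of members to stable regions had an interval that included 1. ACAAAGG or ACAATGG was found in 9.75% of members and 9.27% of stable regions, a ratio of 1.05 (0.958–1.16). Members carried it less often than regions that lost rank (11.2%), with a ratio of 0.873 (0.786–0.971). With ranks by −log10 p in place of fold enrichment the ratio to stable regions was 1.12 with an interval of 1.02 to 1.23, and centred on the ΔSRR2–18 summit it was 0.959. RFX motifs (GTTGCCA or GTTGCTA) were found in 6.86% of members, 6.94% of stable regions and 8.95% of regions that lost rank. The ratio to stable regions had an interval that included 1 for RFX and for 7 further motifs. These were the ZIC motif CAGCAGG with a ratio of 0.956, the GRHL motif AACCNGTT with 1.06, the KLF motif CCCACCC with 0.957 and the TCF/LEF motif CTTTGAT with 1.13. The others were the TAAT homeodomain motif CTAATTA with 1.01, the GATA motif AGATAAG with 1.19 and the CRE motif TGACGTCA with 0.891. With a 50-bp window the interval excluded 1 for TAAT (1.61, 1.12–2.32), GATA (1.53, 1.03–2.28), CRE (0.478, 0.234–0.979) and ZIC (0.855, 0.770–0.950).

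CTCF and ETS motifs were less frequent in members. The CTCF motif lay in 6.52% of members (5.91–7.18), 13.2% of stable regions and 9.21% of regions that lost rank, so the member share was 0.492 (0.442–0.547) of the stable share and 0.708 (0.624–0.802) of the share among regions that lost rank. The CTCF share was highest in regions with little change and low at both ends, with 4.13% for losses above 60 points and 3.48% for gains above 60. Among members it was 3.40% in the 4000 that gained by all 3 measures and 13.4% in the other 1813, close to the share in stable regions. ETS letters (CCGGAAG) were found in 65 members (1.12%) and 1.85% of stable regions, a ratio of 0.603 (0.460–0.791). None of the 20 motifs was present in 22.2% of members and 27.5% of stable regions.

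**Figure D3:**
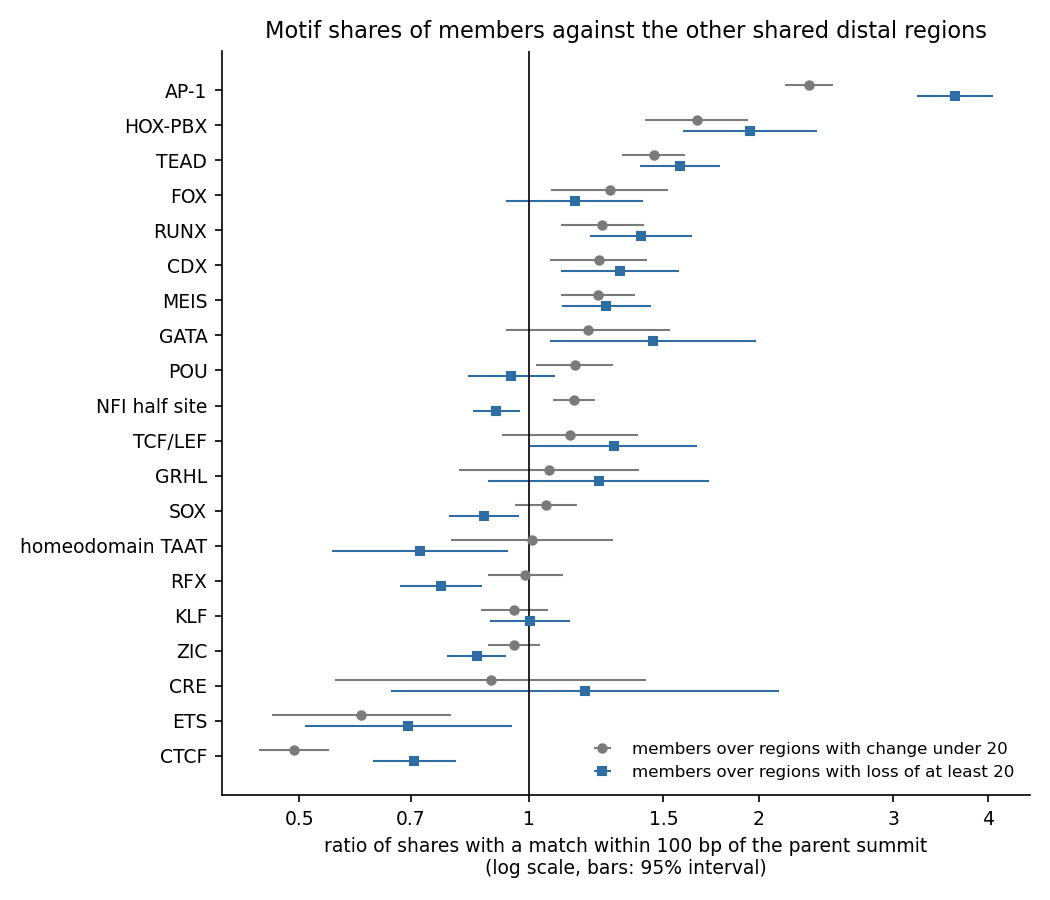
Share of members with a motif within 100 bp of the parent summit, divided by the share among stable regions (circles) and among regions that lost at least 20 points (squares), for 20 motifs, on a log axis with 95% intervals. AP-1 is at 2.33 and 3.62, and CTCF is at 0.492 and 0.708.

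**Figure D4:**
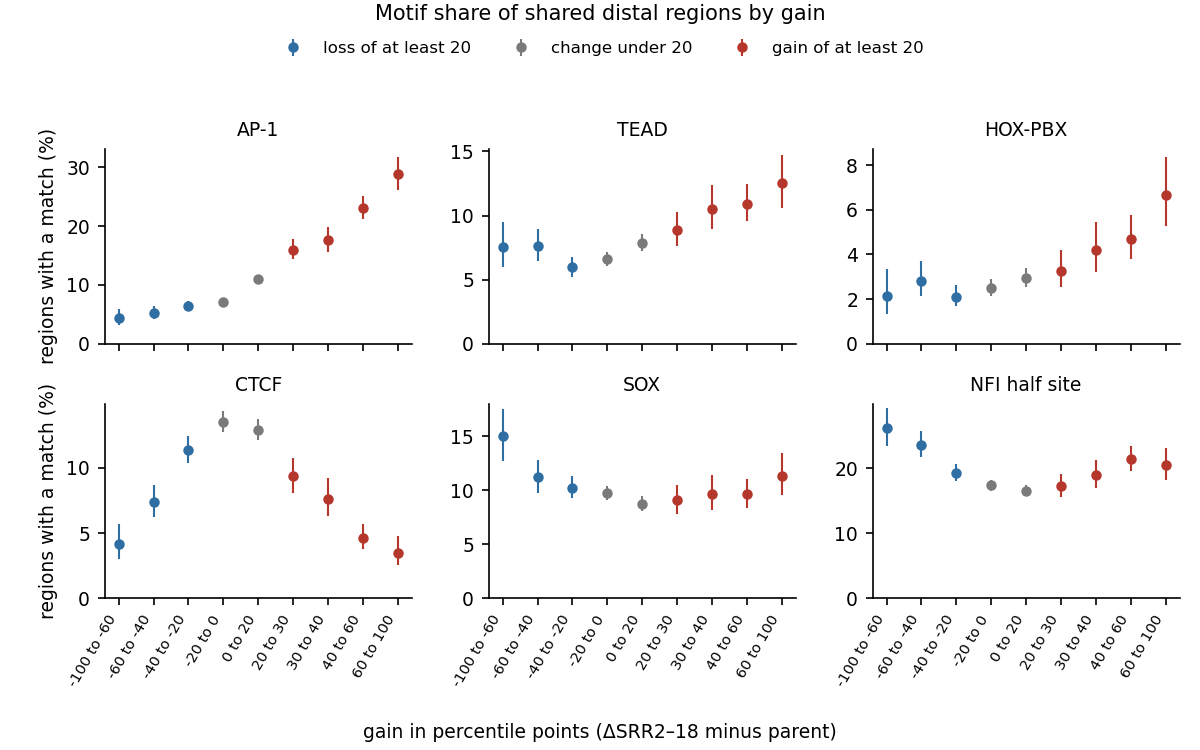
Share of shared distal regions with a motif within 100 bp of the parent summit (y axis, %, with 95% Wilson intervals) in 9 ranges of gain (x axis, percentile points, ranges of unequal width), coloured by loss of at least 20, change under 20 and gain of at least 20. AP-1 rises from 4.36% to 28.8% across the ranges, and CTCF peaks in the regions that changed least.

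AP-1 matches were concentrated at the summits of members and more so at their ΔSRR2–18 summits. Around the parent summit, members had 3.80 matches per 100 regions in the 25 bp to the right of the summit and 3.47 in the 25 bp to its left, against 1.52 and 1.41 in stable regions. Around the ΔSRR2–18 summit the same bins held 7.05 and 6.98 in members, 3.12 and 2.99 in stable regions, and 2.41 and 2.36 in regions that lost rank. With windows centred on the ΔSRR2–18 summit, 31.8% of members carried AP-1, against 14.6% of stable regions and 10.9% of regions that lost rank. The higher AP-1 share at ΔSRR2–18 summits was therefore not limited to members.

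**Figure D5:**
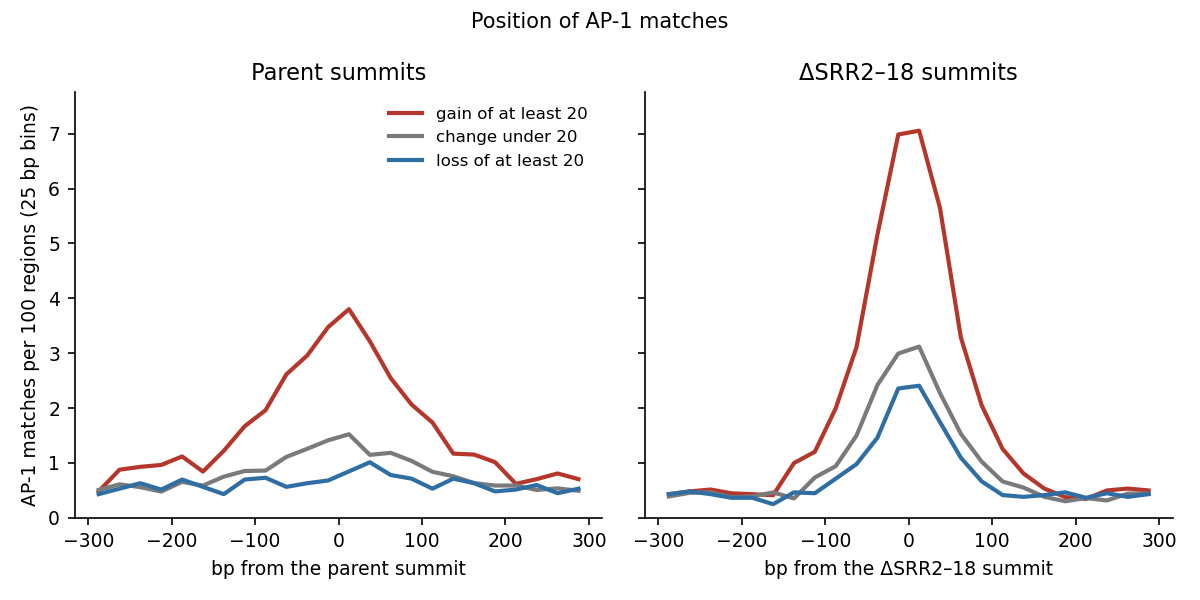
AP-1 motif matches per 100 regions in bins of 25 bp (y axis) by distance from the parent summit (left) and the ΔSRR2–18 summit (right) for members, stable regions and regions that lost at least 20 points. Members peak at 3.80 around parent summits and 7.05 around ΔSRR2–18 summits.

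The strongest summits of paired intervals lay far apart more often in members than in stable regions. They lay within 100 bp of each other in 4363 members (75.1%) and 82.3% of stable regions. They were more than 250 bp apart in 899 members (15.5%) and 10.4% of stable regions, a ratio of 1.48 (1.37–1.60). Intervals were paired by an overlap of at least 1 bp, so a distant ΔSRR2–18 summit can lie outside the parent interval. At such distances the comparison can be between neighbouring peaks. In those 899 members the parent summit carried AP-1 in 5.12% (3.86–6.76) and the ΔSRR2–18 summit in 41.4% (38.2–44.6). SOX motifs went the other way, from 13.1% at parent summits to 4.67% at ΔSRR2–18 summits, and NFI from 22.9% to 14.2%. HOX-PBX went from 2.00% to 9.12%. Stable regions with summits this far apart had the same order, with AP-1 in 3.45% and 32.1%, and SOX in 11.6% and 6.20%. Where the summits lay within 100 bp of each other, the AP-1 share of members was 25.8% at the parent and 28.7% at the ΔSRR2–18 summit. The stable share at such parent summits was 10.0%, so the excess over stable regions did not rest on distant summits.

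Members with AP-1 differed from other members in their values after deletion. These values come from the contrast that chose the members, so the comparison is descriptive and was not tested. The 1208 members with the motif had a median of 370 parent reads, compared with 372 in the 4605 without it, and a median parent percentile of 28.8 and 27.8. Their median ΔSRR2–18 reads were 835 and 549, the median ΔSRR2–18 percentile was 81.5 and 73.9, and the median gain was 44.4 and 37.5 points. The read ratio at equal depth had a median of 3.99 with AP-1 and 2.53 without. In stable regions the same ratio was 1.33 with AP-1 and 0.987 without, and in regions that lost rank 0.571 and 0.522. TEAD was found in 8.44% of members with AP-1 and 11.0% of those without, and CTCF in 2.24% and 7.64%.

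Members were far from promoters more often than stable regions. The nearest TSS of any gene was at a median of 16214 bp in members and 12842 bp in stable regions, and it was over 10 kb away in 65.6% and 57.7%, a ratio of 1.14 (1.11–1.16). Introns held 56.9% of member summits, intergenic DNA 38.8% and exons 4.25%, compared with 52.3%, 42.3% and 5.39% of stable regions. The intergenic ratio was 0.918 (0.884–0.954). A protein-coding TSS lay within 50 kb of 60.6% of members and 68.4% of stable regions. The mean GC content of the 201-bp window was 50.6% in members, 52.5% in stable regions and 52.6% in regions that lost rank, and soft-masked repeats covered a mean of 7.34%, 7.62% and 7.13% of it.

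The 3523 members within 50 kb of a coding TSS were assigned to 2903 nearest genes, of which 2410 had a single member and 20 had 4 or more. Of these 2903 genes, 943 also had a region that lost at least 20 points. *Maml2*, which encodes a coactivator of Notch signalling, had the most, with 8 members among 11 shared distal regions, while 2 of the others lost rank. Its members gained 24.9 to 79.4 points. The member with the largest gain (chr9:13697392-13697739) went from percentile 8.55 to 88.0, but had 1062 and 587 reads, 1.09 times at equal depth, with backgrounds of 261 and 28.4. Another intronic region (chr9:13314493-13315120) carried AP-1 and went from 23.6 to 83.5, with reads of 272 and 1206, 8.76 times at equal depth. A further one (chr9:13611651-13612062) carried HOX-PBX and MEIS motifs and went from 15.9 to 89.0, with reads of 421 and 1237. The region 1310 bp upstream of a *Maml2* TSS (chr9:13296240-13297031) gained 24.9 points by fold enrichment while its reads at equal depth were 0.605 of the parent value. Of the 8 *Maml2* members, 2 (chr9:13632302-13632906 and chr9:13633330-13633860) shared 1 deletion interval.

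*Tnc*, the extracellular matrix glycoprotein tenascin C of radial glia and astrocytes, had 5 members among 7 shared distal regions, with gains up to 39.3 points, and 1 region whose percentile fell by 83.8. *Daam1*, a formin of planar polarity signalling, had 5 among 9 regions. *Cspg4*, the NG2 proteoglycan of oligodendrocyte precursors, had 4 members among 4 regions, with gains of 25.8 to 48.9. *Dennd3* also had 4 of 4, with gains of 25.4 to 77.5. *Fbln2*, *Fyn*, *Sh3pxd2b* and *Arhgap24* had 4 members each among 6 to 8 regions. *Cspg4*, *Dennd3* and *Fbln2* had no region that lost at least 20 points.

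The share of members in gene lists was read against the 21.1% of all 16661 shared distal regions with a gene within 50 kb, whose median gain was −1.40. Because the regions were chosen by these same values, the shares describe the lists and were not tested. Their intervals cover counting error only and treat regions of the same gene as separate, so they are no test against that share. Among 63 shared distal regions near Notch pathway genes, 26 were members (41.3%, 95% interval 30.0–53.6), 11 lost rank, and the median gain was 10.9. *Maml2* accounted for 8 of these members. *Hes1*, a Notch target that keeps progenitors undifferentiated, had 4 members among 8 regions with gains up to 64.7 and no region that lost rank. *Notch1* had 3 members and 2 regions that lost rank among 9. Its largest gain was 81.6 points (chr2:26531894-26532258), although reads at that region were 1331 and 969, or 1.44 times at equal depth. *Notch2* had 2 members and 2 regions that lost rank, down to −82.1. *Heyl* had 2 members and 1 region at −43.0, and the lowest gains near *Hes6* and *Mfng* were −38.8 and −36.6. *Jag1*, a ligand, had 2 among 4, and *Jag2*, another ligand, had 1 of 1 at 58.2.

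Regions near neural progenitor and radial glia genes included 18 members among 52 (34.6%, 23.2–48.2), 9 that lost rank and a median gain of 7.64. The single shared distal region near *Gfap*, the intermediate filament of astrocytes, gained 84.3 points. *Aldh1l1* had 3 members among 6 regions, and *Nfia*, a factor of gliogenesis, had 2 among 6. *Tnc* and *Hes1* together gave 9 of the 18 members, and *Hes1* is also on the Notch list. *Slc1a3*, a glial glutamate transporter gene, had 1 member (34.5 points) and 1 region that lost rank. Other genes of this list went the other way. The single regions near *Fabp7*, a radial glia fatty acid binding protein gene, and *Sox9* had gains of −69.0 and −40.4. Of the 2 regions each near *Sox1* and *Nes*, 1 lost rank and none was a member. Near *Aldh1l1* and *Nfib* the lowest gains were −68.9 and −66.6.

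Regions near *Hox* and caudal genes had the lowest member share of the 10 lists. Only 2 of 23 were members (8.70%, 2.42–26.8), 15 lost rank and the median gain was −27.1. These are distal regions open in both genotypes, ranked over local background. Promoters and intervals open only after deletion were left out, so the values do not describe the *Hox* loci as a whole. A loss of rank can go with fewer summit reads or with more local background. Which of these held for the 15 regions was not tested, so they are not shown to be less open. The 2 members were a region near *Hoxb9* on chr11:96260246-96260763 and a region near *Cdx2*, which gained 51.5 points. The *Hoxb9* region carried AP-1 and went from percentile 27.8 to 81.1. Its reads were 262 and 1608, 12.1 times at equal depth, and its background also rose, from 40.4 to 90.1 reads in the shallower pool. Regions of this list were chosen by their nearest gene and not by HOX-PBX letters. They therefore do not bear on the excess of that motif in members. Retinoic acid pathway genes, which act upstream of *Hox* genes, had 9 members among 33 regions (27.3%, 15.1–44.2). Another 9 lost rank and the median gain was −3.96. *Aldh1a1*, a retinoic acid synthesis gene, had 2 members of 2, with gains of 42.3 and 66.8. *Aldh1a3* had 1 member and 2 regions that lost rank. *Rara* had no member among 5 regions and 3 that lost rank, and the single region near *Crabp2* had a gain of −72.7.

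Lists tied to AP-1, TEAD and growth factor signalling had member shares of 16.0% to 22.2%, where all regions with a gene had 21.1%. AP-1 subunit genes had 4 members among 25 regions (16.0%, 6.40–34.7), 6 that lost rank and a median gain of −6.46. *Fos* had 1 member among 6, and *Jdp2*, an AP-1 repressor, had 2 among 5, up to 54.4 points, and 2 regions that lost rank. YAP and TEAD genes and targets had 12 among 54 (22.2%, 13.2–34.9), 10 that lost rank and a median gain of 0.49, with *Ccn1*, a YAP target, at up to 66.3 and *Tead1* at up to 40.2. Of 6 regions near *Tead4*, 3 lost rank and none was a member. The member near *Amotl2* (chr9:102673173-102673796), a YAP inhibitor, carried AP-1, rose from percentile 18.2 to 92.9, and had reads of 206 and 1694, 16.2 times at equal depth. MAPK feedback genes and EGF or FGF ligands had 10 among 58 (17.2%, 9.64–28.9), including *Spry1* at 74.0, *Etv5* at 65.0, *Spred2* at 58.1 and *Dusp4* at 57.5. Another 10 regions of this list lost rank, with a gain of −87.5 near *Spry1* itself and −67.8 near *Spry2*, and the median gain was −4.57.

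Member shares in the other 3 lists were 18.2% to 26.7%, against the same 21.1%. Matrix and adhesion genes had 23 members among 86 regions (26.7%, 18.5–36.9), 24 that lost rank and a median gain of 1.32. Besides *Tnc*, *Fn1*, which encodes fibronectin, had 2 members of 2. The member with the largest gain of this list, in *Col4a1* and nearest *Col4a2* (chr8:11292533-11293188), went from percentile 8.35 to 82.7, whereas 2 other regions assigned to *Col4a2* lost rank. BMP and TGF-beta genes had 10 members among 55 (18.2%, 10.2–30.3), 9 that lost rank and a median gain of −1.71. The members included regions near *Smad3* at 50.7 points and *Tgfbr3* at 48.3. *Smad3* had 1 member and 2 regions that lost rank among 5, down to −62.6. Forebrain identity factors had 6 among 33 (18.2%, 8.61–34.4), 9 that lost rank and a median gain of −1.03. The members included regions near *Lhx8* at 48.8, *Lhx6* at 46.8 and *Otx1* at 36.7. The other region near *Lhx8* was at −59.8, and both regions near *Lhx2* lost rank.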

How the data were processed

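ATAC-seq peak lists of NSPCs were analysed for 3 parent and 3 ΔSRR2–18 cultures, grouped by the sample labels, which give 30000 cells and 50 to 60 M reads per culture. The authors ran the ENCODE ATAC-seq pipeline (version 1.10.0) on mm10, with MACS2 as peak caller and IDR to merge the 3 cultures per genotype. Each deposited summit has a score from IDR, a ratio of pileup to local background (fold enrichment), a −log10 p, a −log10 q that was not used, and an offset. The conservative lists gave all main values. Reads of a *M. castaneus* allele can map less often to mm10.

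An interval took the values of its summit with the highest fold enrichment. Reads and background were solved from fold enrichment and −log10 p with the Poisson model of MACS2, whole meaning within 0.05 of an integer. TSSs were those of GENCODE M21 basic, and genes were the nearest protein-coding TSS within 50 kb. Motifs were exact matches on either strand of GRCm38 within 100 bp of the summit. Shares carry 95% Wilson intervals and ratios 95% intervals on the log scale, and a ratio counted as a difference where its interval excluded 1. Python 3.11.15, numpy 2.4.6, pandas 2.3.3 and scipy 1.17.1 were used, and the scripts were tested on simulated data.

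The members, gene lists and motifs were chosen with earlier results of these data known. Named are the 10 members with the largest gain, the 5 with the highest ΔSRR2–18 percentile, the member with the largest gain of each of 10 gene lists, and the 10 genes with most members. Other genes of the lists were named after their values were seen. Some genes that these rules name, and a motif of the study, are not reported here. Alternatives covered the lists, overlap, ranking measure, thresholds, motif window and centre, and regions of like GC content or percentile.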

Additional observations from a re-analysis of the deposited data

How the results depend on the processing

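The number of members ranged from 4036 (gain of at least 30) to 8420 (gain of at least 10) over 12 alternatives. The AP-1 ratio to stable regions stayed between 1.85 and 3.06 and the CTCF ratio between 0.237 and 0.563 over 17 alternatives, and the intergenic ratio between 0.907 and 0.957 over 12, all with intervals that excluded 1. CTCF was lowest with ranks by summit reads. Merging overlapping intervals changed no value.

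The SOX ratio depended on the setting. It rose to 1.12 with ranks by −log10 p, 1.15 by summit reads and 1.15 among regions of like parent percentile, each with an interval above 1, and fell below 1 with a 50-bp window (0.979), at the ΔSRR2–18 summit (0.959) and among regions of like ΔSRR2–18 percentile (0.994). The cause was not tested. Ratios near 1 changed side for ZIC (1.02 at like GC content, 1.03 at like parent percentile), RFX (1.01 by −log10 p, 1.05 at like parent percentile), KLF (1.02 with a 50-bp window, 1.15 at like GC content), CRE (1.05 at like GC content, 1.04 at like parent percentile), GRHL (0.840 with the optimal lists, 0.900 by −log10 p, 0.877 with a 50-bp window, 0.894 at the ΔSRR2–18 summit, 0.915 at like parent percentile) and TAAT homeodomain motifs (0.741 with summits within 100 bp, 0.823 at the ΔSRR2–18 summit, 0.874 at like GC content, 0.973 at like ΔSRR2–18 percentile). Of the values that changed side, only KLF at like GC content had an interval without 1. Without a change of side, intervals came to exclude 1 for TAAT (1.61), GATA (1.53) and CRE (0.478) with a 50-bp window, GATA (1.33) at like ΔSRR2–18 percentile, and ZIC by −log10 p (0.860), with a 50-bp window (0.855) and at like ΔSRR2–18 percentile (0.900). They came to include 1 for CDX (1.08), FOX (1.17) and POU (1.04) at like GC content, and for POU with summits within 100 bp (1.09) and a 50-bp window (1.18).

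No paired analysis was possible because the lists pool the cultures of each genotype, and leaving out a culture was not run for the same reason. The parent pool was 1.98 times as deep, so ranks within a list were compared and not fold enrichments.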

Other observations

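Members were spread over all chromosomes but Y, where 0 of 5 shared distal regions were members. Chromosome X had 95 members among 581 shared distal regions (16.4%, 95% Wilson interval 13.6–19.6), and the autosomes ranged from 20.97% on chromosome 19 to 25.5% on chromosome 12 (23.1–28.0).

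Gains did not come in runs of neighbouring regions. Of the 2106 members with another shared distal region within 10 kb, the nearest one was also a member in 20.1%, compared with 20.2% for the nearest neighbours of stable regions. It had lost at least 20 points in 32.3%, compared with 20.0% for stable regions. Close neighbours can contribute to each other's local background, so their ranks by fold enrichment need not be independent values. The part this has in the opposite changes was not tested.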
